A study of Homo sapiens with 20 samples.

Results

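MAF and 4 genes described as its targets in multiple myeloma, CCND2, ITGB7, CCR1 and NUAK1, were followed in newly made and in total RNA of MM1.S cells after degradation of the coactivators CBP and p300. These 5 genes were fixed by name, with earlier results of these data known. Each was taken as the transcript with the most reads, so that they are 5 of the 19617 genes that the counts could be joined to. MM1.S is an established myeloma cell line, of wild-type genotype per the labels, which was treated with 10 nM dCBP-30, a bifunctional compound that recruits CBP and p300 to the ubiquitin ligase substrate receptor cereblon, or with the vehicle DMSO. Cells were harvested after 2, 6 or 24 h, with 3 libraries for each treatment at each time (18 libraries in all), and each time had its own DMSO libraries. All of these cells received 4-thiouridine (4sU) for the hour before harvest. A further 2 libraries came from MM1.S cells without 4sU, and all of the results below concern this 1 cell line.

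MAF, also called c-MAF, is a basic leucine zipper transcription factor that binds DNA as a dimer and has a long acidic activation domain. In a subset of myelomas, MM1.S among them, a translocation places MAF beside the immunoglobulin heavy chain locus, whose enhancers are strongly active in plasma cells. The genes known to respond to MAF in myeloma include CCND2 (cyclin D2, which activates CDK4 and CDK6 at entry into the cell cycle), ITGB7 (the integrin beta 7 chain, which pairs with alpha 4 or alpha E and holds cells to stroma and gut), CCR1 (a receptor for inflammatory chemokines) and NUAK1 (a kinase related to AMPK). CBP and p300 acetylate histones at active enhancers and act as coactivators for many transcription factors.

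In this assay, called SLAM-seq, incorporated 4sU is alkylated and then reads as C in place of T. A read with a T>C conversion therefore marks RNA made during the labelling hour, whereas the total reads of a gene also hold the RNA made before it. Levels are given in RPM, the T>C reads or total reads of a gene per 1000000 reads of its library, after TMM scaling, a factor per library that balances most genes. Such a level is relative to the other RNA in the library, so fewer cells, less RNA per cell and a change of all RNA at once cannot be told apart.

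Reads were counted on 3′ untranslated regions (3′ UTRs) of hg38, and the regions that stand for the 5 genes each lie in 1 exon. MAF is counted over chr16:79594331-79598783 on the minus strand (ENST00000393350.1), CCND2 over chr12:4300007-4305353 on the plus strand (ENST00000261254.8) and ITGB7 over chr12:53191323-53191701 on the minus strand (ENST00000551319.5). CCR1 is counted over chr3:46201711-46203248 (ENST00000296140.4) and NUAK1 over chr12:106063345-106066804 (ENST00000261402.7), both on the minus strand. These are the GENCODE coordinates, which include the stop codon. The regions hold between 85 (ITGB7) and 1696 (CCND2) T positions, and levels are compared within a gene, not between genes.

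RefSeq promoter sequences of GRCh38.p14 were found for 4 of the 5 genes; CCND2 was not matched. The 250 bases before the start of MAF and of CCR1, the genes with the largest estimated decreases in T>C reads at 2 h, are shown on the strand of the gene, with the letters that match a searched motif in capitals. MAF lies at chr16:79600738-79600987 and CCR1 at chr3:46208314-46208563, both on the minus strand.
MAF: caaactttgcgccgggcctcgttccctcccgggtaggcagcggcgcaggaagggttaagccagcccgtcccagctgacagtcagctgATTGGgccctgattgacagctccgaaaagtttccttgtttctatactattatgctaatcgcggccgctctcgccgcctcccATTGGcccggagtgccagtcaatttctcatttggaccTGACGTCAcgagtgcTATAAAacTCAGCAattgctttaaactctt
CCR1: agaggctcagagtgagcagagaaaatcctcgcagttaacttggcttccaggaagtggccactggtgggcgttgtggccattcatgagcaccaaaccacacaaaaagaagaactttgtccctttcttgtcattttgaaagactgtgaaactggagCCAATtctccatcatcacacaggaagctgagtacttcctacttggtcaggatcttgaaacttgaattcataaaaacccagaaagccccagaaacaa
Both strands were searched for TGACGTCA, which is known as the cyclic AMP response element. The search also covered TGCTGA, the core of the sequence that MAF proteins recognise, together with its longer form TGCTGAC, which holds the shorter one. Further motifs were the AP-1 element, written TGACTCA, the TATA box in the form TATAAA, and lastly the CCAAT box. The matches that were found do not overlap one another. TGACGTCA was added to the search after this sequence had been seen. In the MAF window TGACGTCA, which reads the same on both strands, ends 38 bases, TATAAA 25 bases and TGCTGA (as its reverse complement) 17 bases before the start, and CCAAT occurs as its reverse complement ending 159 and 78 bases before it. The CCR1 window holds CCAAT alone, ending 92 bases before the start, and the windows of ITGB7 and NUAK1 hold none of the searched letters. Of the 35116 promoter windows in the reference, 1.65% hold TGACGTCA, 14.0% TGCTGA, 3.43% TGCTGAC, 4.20% TGACTCA, 10.7% TATAAA and 32.0% CCAAT. A match of letters is a description of these windows and not a site of binding, and no match says only that the letters are not in the window.

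The libraries held between 12440700 and 18729086 reads on genes. T>C reads made up 5.99% to 8.62% of them under DMSO, 4.71% to 6.86% under dCBP-30 and 0.794% to 0.809% without 4sU. At 24 h the conversions per T>C read lay between 1.43 and 1.51 under dCBP-30 and between 2.46 and 2.51 under DMSO. All 10 plasma cell markers on the list were detected, with a summed total level of 6123 to 7760 RPM over the DMSO libraries, whereas the 15 markers of other cell types summed to between 11 and 18.6 RPM under DMSO, 2 of them at 0 in all labelled libraries. Under dCBP-30 the summed level of the markers of other cell types lay between 6.66 and 22.6 RPM, and that of the plasma cell markers fell from 4925 to 5385 RPM at 2 h to 645 to 826 RPM at 24 h; the part of either in the values below was not tested. The methods give triplicate samples seeded in multiwell plates, without stating that they were independent experiments, so p-values measure the spread between these libraries, which may be technical.

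New MAF RNA fell at every time. T>C reads of MAF stood at 130, 137 and 142 RPM in the DMSO libraries at 2 h and at 4.14, 8.05 and 5.38 RPM under dCBP-30. At 6 h the DMSO libraries held 159, 133 and 143 RPM and the dCBP-30 libraries 3.41, 3.27 and 5.15 RPM. At 24 h the values were 228, 200 and 219 RPM under DMSO and 17.0, 13.5 and 22.9 RPM under dCBP-30. The treated libraries lay far below their controls at each time and were higher at 24 h than at 2 or 6 h. The log2 fold change was −4.52 ± 0.198 (SE) at 2 h, −5.20 ± 0.205 at 6 h and −3.60 ± 0.183 at 24 h (edgeR's quasi-likelihood test, adjusted p = 3.8e-27, 9.8e-30 and 2.3e-24), which is 23-fold, 36.8-fold and 12.1-fold lower. Background, judged by the libraries without 4sU, made up 39.8% of the 2 h count under dCBP-30 and 4.94% of the 6 h count. With this background subtracted, the log2 changes at 2 and 6 h were alike, at −5.20 and −5.22.

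The pool of MAF RNA followed the fall in new RNA. Total reads at 2 h were 537, 542 and 577 RPM under DMSO and 257, 306 and 221 RPM under dCBP-30. At 6 h they were 613, 510 and 527 RPM under DMSO against 12.1, 19.8 and 31.9 RPM, and at 24 h 631, 550 and 575 RPM against 83.8, 66.0 and 92.4 RPM. The mean of treated libraries thus came to 47.3% of the DMSO mean (2 h), 3.87% (6 h) and 13.8% (24 h), with no overlap between libraries. In the fit these were log2 changes of −1.08 ± 0.205, −4.69 ± 0.24 and −2.86 ± 0.218 (adjusted p = 0.0024, 1e-12 and 3.8e-10). The 2 h change lay near the 2-fold limit used for a call (an adjusted p under 0.05 and more than 2-fold), and was −0.97 without replicate 3 of dCBP-30 at 2 h, still with an adjusted p of 0.020.

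**Figure D1:**
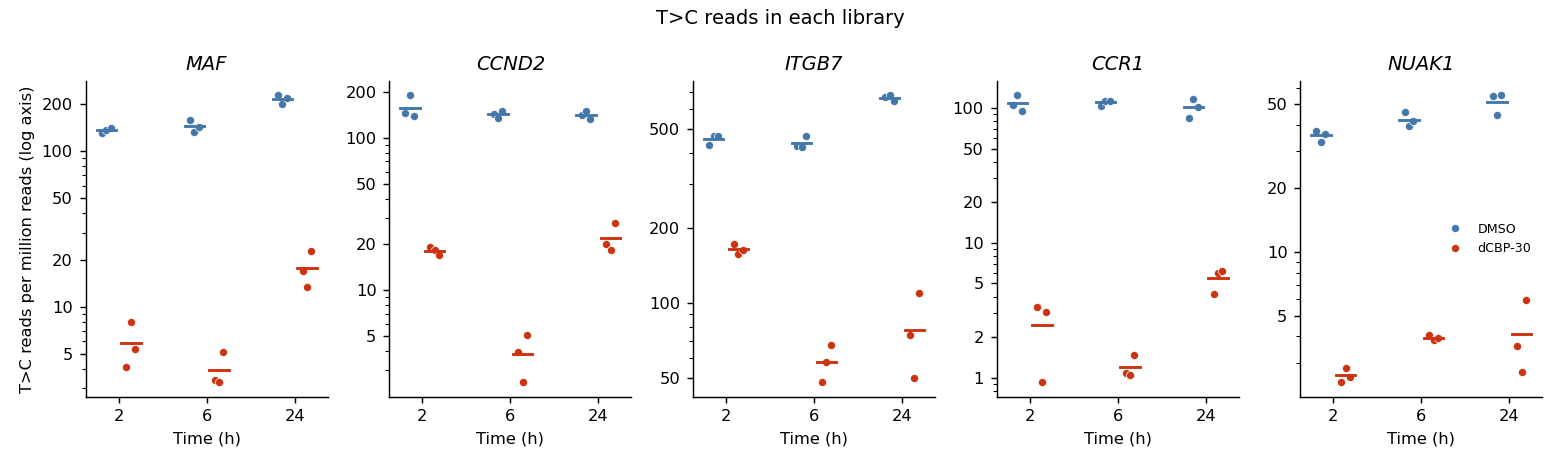
T>C reads in RPM (log axis) of each gene in every labelled library against time, with DMSO in blue and dCBP-30 in red; points are libraries and bars the mean of 3. In each panel the dCBP-30 libraries lie below all DMSO libraries of the same time, and in MAF, CCND2 and CCR1 they lie higher at 24 h than at 6 h.

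CCND2, which encodes cyclin D2, was lower in new RNA at every time, most so at 6 h, by 37.2-fold. T>C reads at 2 h were 145, 190 and 139 RPM under DMSO and 19.2, 18.3 and 17.0 RPM under dCBP-30. The 6 h values were 144, 134 and 150 RPM against 3.95, 2.50 and 5.09 RPM, and at 24 h 141, 149 and 132 RPM against 20.2, 18.4 and 27.5 RPM. Counted this way, the treated libraries were lowest at 6 h and stood at similar levels after 2 and 24 h. The log2 fold changes were −3.12 ± 0.176, −5.22 ± 0.199 and −2.67 ± 0.172 (adjusted p = 3.8e-22, 5.1e-30 and 5.1e-20). Background, judged by the libraries without 4sU, made up 63.3% of the 2 h count under dCBP-30 but 5.71% of the 24 h count. The similar counts are therefore not similar amounts of new RNA. With background subtracted, the log2 change was −4.42 (2 h) and −2.64 (24 h), and their difference passed (1.77, adjusted p = 0.0030).

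Total CCND2 RNA fell later than its new RNA. At 2 h it stood at 1633, 2106 and 1918 RPM under DMSO and at 1529, 1497 and 1654 RPM under dCBP-30, and these libraries overlapped. At 6 h the values were 1785, 2009 and 1885 RPM against 288, 266 and 281 RPM, and at 24 h 1594, 1508 and 1375 RPM against 162, 159 and 195 RPM. The difference at 2 h did not pass the test (log2 −0.27 ± 0.107, adjusted p = 0.17), while those at 6 and 24 h did (−2.77 ± 0.114 and −3.11 ± 0.116, adjusted p = 6.2e-16 and 3.2e-17). Under dCBP-30 the total reads of CCND2 lay lower at 24 h than at 6 h in all libraries, and so did those under DMSO. The difference of the dCBP-30 effect between 6 and 24 h did not pass (−0.35 ± 0.151, adjusted p = 0.081).

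ITGB7 was the last of the 5 genes whose pool was called lower, at 24 h. Its T>C reads at 2 h were 429, 467 and 468 RPM under DMSO and 172, 157 and 163 RPM under dCBP-30. After 6 h these were 427, 423 and 468 RPM against 47.8, 57.7 and 67.7 RPM, and at 24 h 669, 680 and 646 RPM against 74.4, 49.6 and 109 RPM. New ITGB7 RNA was therefore below its controls in all treated libraries, by log2 −1.47 ± 0.153, −2.93 ± 0.162 and −3.10 ± 0.162 (adjusted p = 5.9e-11, 6.9e-21 and 1e-21). The 2 h change, 2.77-fold lower, was the smallest estimate of the 5 genes.

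Total reads were 22867, 23469 and 24476 RPM under DMSO at 2 h and 21793, 23357 and 18797 RPM under dCBP-30, with overlapping libraries (log2 −0.15 ± 0.123, adjusted p = 0.61). At 6 h the treated libraries held 15017, 17065 and 17949 RPM against 22853, 22006 and 24049 RPM, all below their controls but by less than 2-fold (log2 −0.46 ± 0.123, adjusted p = 0.0042), and without TMM factors this difference did not pass (log2 −0.14, adjusted p = 0.34). By 24 h the pool was down to 2843, 1968 and 3121 RPM against 21791, 22428 and 22067 RPM (log2 −3.06 ± 0.133, adjusted p = 5.6e-16), which is 12% of the DMSO mean.

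CCR1, the chemokine receptor, had the largest estimated decreases in new RNA of the 5 genes at every time. T>C reads at 2 h were 106, 124 and 95.5 RPM under DMSO and 3.36, 0.924 and 3.07 RPM under dCBP-30. The libraries at 6 h held 104, 113 and 113 RPM against 1.08, 1.05 and 1.47 RPM, and at 24 h 84.5, 117 and 102 RPM against 4.21, 5.93 and 6.22 RPM. These are few reads: the treated libraries at 6 h held 18, 19 and 24 T>C reads of CCR1. The log2 fold changes were −5.48 ± 0.242, −6.51 ± 0.258 and −4.21 ± 0.219 (adjusted p = 3.4e-25, 7.6e-28 and 1.5e-22), or 44.7-fold, 91.2-fold and 18.5-fold lower.

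Total CCR1 RNA was almost lost by 6 h. At 2 h total reads were 583, 625 and 519 RPM under DMSO and 200, 175 and 223 RPM under dCBP-30. At 6 h the DMSO libraries held 448, 542 and 530 RPM and the treated ones 5.15, 5.55 and 6.01 RPM, which is 1.10% of the control mean. At 24 h total reads of CCR1 were 363, 437 and 401 RPM against 28.1, 23.2 and 29.4 RPM. No libraries overlapped, and the log2 changes of −1.53 ± 0.119, −6.51 ± 0.155 and −3.89 ± 0.133 passed the test at each time (adjusted p = 9.8e-10, 1.7e-20 and 1.1e-17).

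NUAK1, the AMPK-related kinase, fell by 10.7-fold to 13.6-fold in new RNA at the 3 times. Its T>C reads at 2 h were 37.6, 33.1 and 36.3 RPM under DMSO and 2.42, 2.84 and 2.57 RPM under dCBP-30. At 6 h they were 46.0, 39.5 and 41.6 RPM against 4.07, 3.83 and 3.92 RPM, and at 24 h 54.7, 44.7 and 55.2 RPM against 3.61, 2.69 and 5.95 RPM. The log2 changes lay close together, at −3.77 ± 0.228, −3.42 ± 0.217 and −3.65 ± 0.217 (adjusted p = 7.9e-21, 3e-20 and 1.9e-21). Total reads went from 124, 108 and 114 RPM to 38.6, 37.4 and 39.1 RPM at 2 h. At 6 h they went from 125, 121 and 122 RPM to 13.4, 15.2 and 11.5 RPM, and at 24 h from 137, 109 and 121 RPM to 20.8, 18.2 and 18.7 RPM. These were log2 changes of −1.58 ± 0.120, −3.20 ± 0.129 and −2.67 ± 0.125 (adjusted p = 6.5e-10, 5.1e-16 and 2.8e-15).

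**Figure D2:**
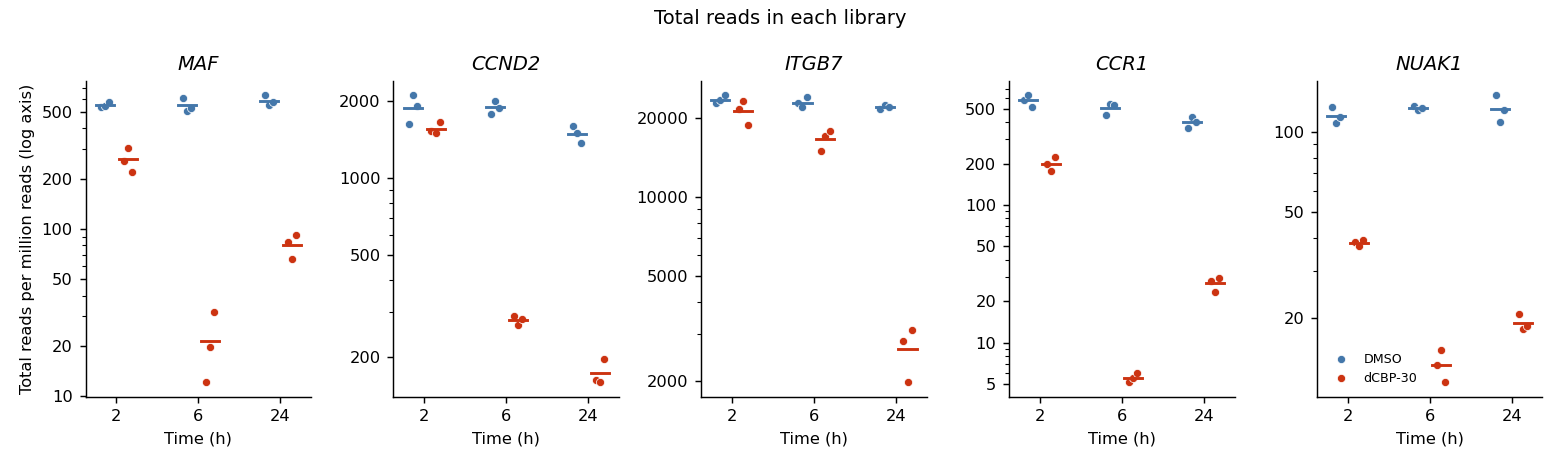
Total reads in RPM (log axis) of each gene in every labelled library against time, with DMSO in blue and dCBP-30 in red; points are libraries and bars the mean of 3. The treated libraries overlap with DMSO at 2 h in CCND2 and ITGB7, and ITGB7 is still at 72.6% of the DMSO mean at 6 h, whereas CCR1 is at 1.10%.

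Counted together, all 5 genes were called lower in T>C reads at 2, 6 and 24 h, where 7.14%, 17.1% and 31.2% of the 10086 genes tested were called lower. In total reads 3 of 5 were called lower at 2 h (MAF, CCR1 and NUAK1), 4 of 5 at 6 h (all but ITGB7) and 5 of 5 at 24 h, beside 1.25%, 8.67% and 16.1% of the 12272 genes tested. Because the genes were chosen with earlier results of these data known, these counts are a description. The median log2 change of all genes in T>C reads was 0.05, −0.28 and −0.69 at the 3 times, so that part of the 24 h values was shared by most genes. With T>C reads in place of total reads as the library size, this median was 0.05, 0.04 and −0.04, and the 5 genes were lower by log2 values of between 2.04 and 3.56 at 24 h and still called. Under that scaling 11.8% of all genes were called lower and 5.15% higher at 6 h, and 15.0% and 7.55% at 24 h, in place of 17.1% and 2.36%, and 31.2% and 2.17%.

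The 3 genes with the highest shares of new reads under DMSO had the smallest shares of their pools left at 2 h. Under DMSO at 2 h, T>C reads made up 31.0% ± 0.820 of the reads of NUAK1, 24.7% ± 0.548 of MAF, 18.8% ± 0.903 of CCR1, 8.37% ± 0.974 of CCND2 and 1.93% ± 0.0580 of ITGB7 (SD, n = 3 each), with no overlap between the libraries of neighbouring genes in this order. The pool left after 2 h of dCBP-30, as a share of the DMSO mean, was 33.3% for NUAK1, 34.6% for CCR1, 47.3% for MAF, 82.7% for CCND2 and 90.3% for ITGB7. By 6 h the order had changed at its head, with 1.10% left for CCR1, 3.87% for MAF, 10.9% for NUAK1, 14.7% for CCND2 and 72.6% for ITGB7. With 5 genes this is a description, and the share of T>C reads also depends on how many T positions a read covers.

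**Figure D3:**
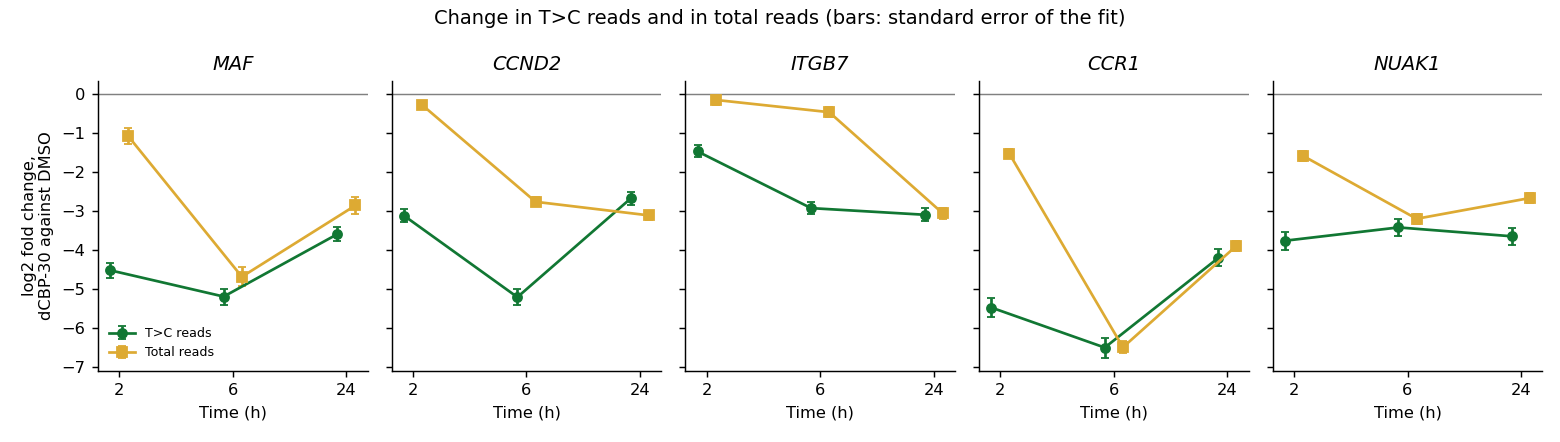
Estimated log2 fold change of dCBP-30 against DMSO (error bars, standard error of the edgeR fit) for T>C reads (green circles) and total reads (yellow squares) of each gene at 2, 6 and 24 h. The gap between both measures at 2 h has closed by 6 h in MAF, CCR1 and NUAK1, but in ITGB7 it closes only at 24 h.

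The ratio of T>C reads to the other reads of the same gene does not depend on how libraries are scaled. At 2 h this ratio was lower for all 5 genes, by log2 values of −3.87 for MAF, −2.95 for CCND2, −1.33 for ITGB7, −4.39 for CCR1 and −2.61 for NUAK1 (limma, adjusted p between 5.7e-06 and 0.00054), and 4.04% of all genes were called lower. At 6 h it was called lower for CCND2 (−2.59, adjusted p = 6e-05) and ITGB7 (−2.50, adjusted p = 7.2e-06), beside 3.35% of all genes. For MAF, CCR1 and NUAK1, whose pools had shrunk by then, it gave −0.53, −0.01 and −0.30 (adjusted p = 0.32, 0.99 and 0.66). New reads thus made up 20.3% ± 6.87 of what was left of MAF in the 6 h treated libraries and 26.4% ± 0.641 in their controls (SD, n = 3), and these libraries overlapped.

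At 24 h the ratio was called lower for MAF (−1.07 ± 0.275, adjusted p = 0.015) and NUAK1 (−1.50 ± 0.308, adjusted p = 0.0048), beside 18.9% of all genes and a median of −0.81 over all genes. It gave 0.48 for CCND2, −0.08 for ITGB7 and −0.40 for CCR1 (adjusted p = 0.16, 0.77 and 0.43). Without replicate 1 of dCBP-30 at 24 h the MAF value was −0.999, inside the 2-fold limit, at an adjusted p of 0.045. Fewer conversions were read per T>C read in the treated cells at that time, 1.79 against 3.08 for MAF, 1.47 against 2.44 for CCND2, 1.28 against 1.91 for ITGB7, 1.77 against 2.93 for CCR1 and 1.49 against 2.40 for NUAK1. The part of this in the 24 h values was not tested.

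**Figure D4:**
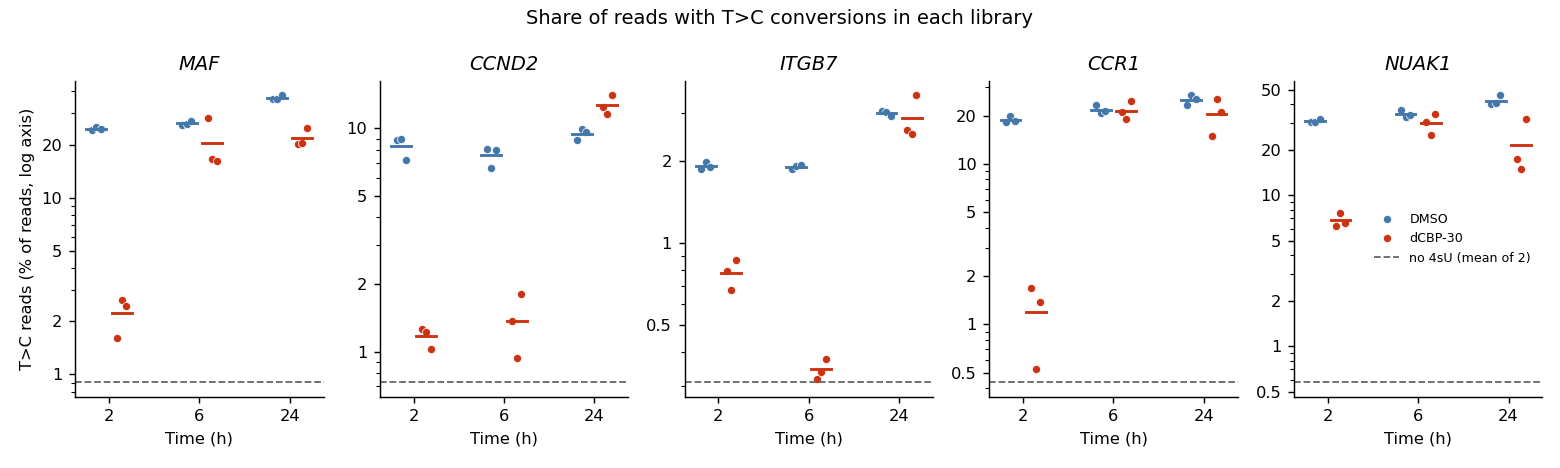
Share of the reads of each gene that hold a T>C conversion (percent, log axis) in every labelled library against time, with the mean of the 2 libraries without 4sU as a dashed line; points are libraries and bars the mean of 3. At 2 h all treated libraries lie below DMSO, while at 6 h those of MAF, CCR1 and NUAK1 overlap with DMSO and those of ITGB7 lie near the dashed line.

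Some T>C reads arise without 4sU, and this background weighed differently on the 5 genes. In the libraries without 4sU, T>C reads were 0.915% of the MAF reads, 0.731% of CCND2, 0.310% of ITGB7, 0.434% of CCR1 and 0.584% of NUAK1. Applied to the reads under dCBP-30, these shares account for 102 of the 256 T>C reads of MAF at 2 h (39.8%), 63.3% of those of CCND2, 40.3% of ITGB7, 36.3% of CCR1 and 8.55% of NUAK1. At 6 h they come to 89.7% for ITGB7 (2641 of 2943 T>C reads) and 53.5% for CCND2, but to no more than 4.94% for the other genes, and at 24 h to between 2.14% and 10.5%.

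Subtracting this background made the estimated decreases at 2 and 6 h larger for the genes with much background. With the background subtracted, the log2 change was −5.20 for MAF, −4.42 for CCND2, −1.96 for ITGB7 (adjusted p = 0.020), −6.09 for CCR1 and −3.87 for NUAK1 at 2 h. At 6 h it was −6.17 for CCND2 and −5.94 for ITGB7, against −5.22 and −2.93 without subtraction. For ITGB7 at 6 h the reads beyond background are few next to the background itself, so this value is poorly bounded. T>C reads were 0.318%, 0.338% and 0.377% of its reads in the treated libraries and 0.320% and 0.297% in those without 4sU. All 5 genes were called lower at all 3 times with the background subtracted too.

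**Figure D5:**
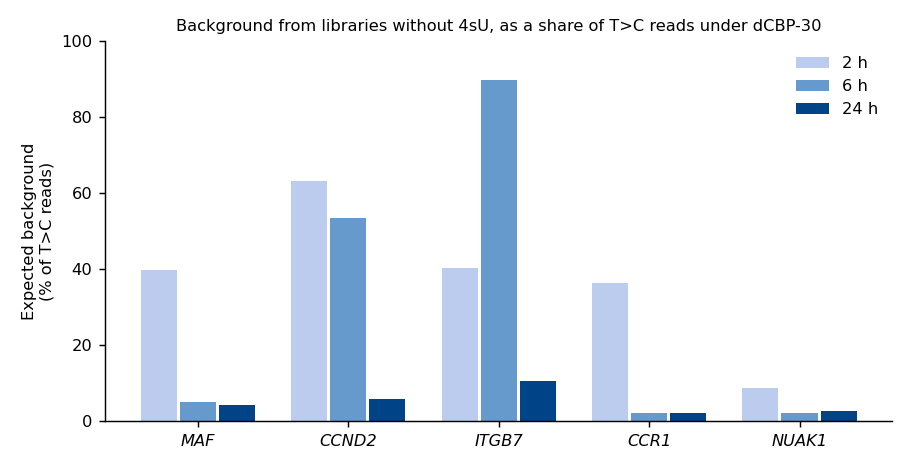
T>C reads that the background of the libraries without 4sU would give, as a percentage of the T>C reads counted under dCBP-30 (3 libraries summed), for each gene at 2, 6 and 24 h (light to dark blue). The bar of ITGB7 at 6 h reaches 89.7% and that of CCND2 at 2 h 63.3%, while all bars at 24 h are at 10.5% or lower.

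Whether a decrease deepened or eased between times was tested as a difference of log2 fold changes, which share libraries of the time they have in common. From 2 to 6 h the decrease in T>C reads deepened for CCND2 (−2.10 ± 0.245, adjusted p = 3.8e-09), for ITGB7 (−1.46 ± 0.214, adjusted p = 2.1e-06) and narrowly for CCR1 (−1.03 ± 0.338, adjusted p = 0.047), beside 7.35% of all genes. The CCR1 difference did not pass in 12 of the 18 fits that left out 1 library, nor after background subtraction (−0.39, adjusted p = 0.82). MAF and NUAK1 gave −0.68 ± 0.258 and 0.34 ± 0.302 (adjusted p = 0.10 and 0.61). For MAF the difference passed without replicate 1 of dCBP-30 at 2 h (−0.86, adjusted p = 0.032) and without replicate 3 of dCBP-30 at 6 h (−0.91, adjusted p = 0.018). With the background subtracted, the MAF difference was −0.019 (adjusted p = 0.99).

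From 6 to 24 h, a comparison added after the data had been seen, the decrease in T>C reads eased for MAF (1.603 ± 0.25, adjusted p = 2.1e-06), CCND2 (2.54 ± 0.244, adjusted p = 2.9e-12) and CCR1 (2.30 ± 0.318, adjusted p = 2.3e-07), whereas 2.92% of all genes moved that way and the median gene went by −0.37. NUAK1 gave −0.23 ± 0.291 (adjusted p = 0.70) and ITGB7 −0.17 ± 0.213 (adjusted p = 0.69). The ITGB7 value turned to 2.84 (adjusted p = 0.021) with the background subtracted. In total reads MAF (1.83 ± 0.296, adjusted p = 5.1e-05), CCR1 (2.61 ± 0.182, adjusted p = 2.8e-11) and NUAK1 (0.53 ± 0.171, adjusted p = 0.018) eased, beside 15.5% of all genes. ITGB7 went further down (−2.60 ± 0.177, adjusted p = 1.9e-11), as did 16.6% of all genes, and CCND2 gave −0.35 ± 0.151 (adjusted p = 0.081). The NUAK1 difference in total reads missed the threshold without replicate 3 of dCBP-30 at 6 h (adjusted p = 0.055), replicate 1 of dCBP-30 at 24 h (0.055) or replicate 2 of DMSO at 24 h (0.061).

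Set directly against 2 h, the 24 h decrease in T>C reads was smaller for MAF (0.93 ± 0.246, adjusted p = 0.0030) and CCR1 (1.27 ± 0.303, adjusted p = 0.00097), beside 3.02% of all genes, and larger for ITGB7 (−1.63 ± 0.214, adjusted p = 3.7e-08), beside 23%. CCND2 gave 0.44 ± 0.231 (adjusted p = 0.16) and NUAK1 0.11 ± 0.298 (adjusted p = 0.83). The ITGB7 difference did not pass with the background subtracted (−1.14, adjusted p = 0.26), and that of CCND2 then passed (1.77, adjusted p = 0.0030). The MAF difference gave 0.86 with an adjusted p of 0.090 when reads were summed over transcripts.

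Levels under DMSO alone were also set against each other, at 24 and 2 h. Their total reads gave log2 differences of between −0.52 (CCR1, adjusted p = 0.057) and 0.09 (NUAK1, adjusted p = 0.83), none of which passed. T>C reads were higher at 24 h for MAF (0.66 ± 0.165, adjusted p = 0.012) and ITGB7 (0.55 ± 0.150, adjusted p = 0.024), close to the median of 0.49 over all genes. NUAK1 gave 0.53, CCND2 −0.16 and CCR1 −0.10 (adjusted p = 0.079, 0.55 and 0.78).

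MAF has a spliced form with another 3′ UTR, which gave a second view of the gene. ENST00000326043.5 is counted over chr16:79593838-79594462, which overlaps the end of the chosen region, so both views share some sequence. Its total reads were 61.9, 62.3 and 77.0 RPM under DMSO at 2 h and 57.1, 58.7 and 36.8 RPM under dCBP-30, without overlap. After 6 h these were 91.2, 68.5 and 68.6 RPM against 3.47, 6.10 and 9.62 RPM, and at 24 h 68.4, 58.1 and 55.1 RPM against 15.8, 16.9 and 27.7 RPM. T>C reads of this form were 176 of 2719 reads (6.47%) under DMSO and 34 of 2140 (1.59%) under dCBP-30 at 2 h, summed over 3 libraries. The libraries without 4sU held 45 T>C reads among 2228 reads of this form, a larger share than in the treated libraries. New RNA of this form could therefore not be told from background under dCBP-30 at 2 h. In total reads this form showed the same order of times as the main form, with the lowest levels at 6 h. Summed over all transcripts, where a read on overlapping regions can be counted repeatedly, MAF gave log2 changes in T>C reads of −4.39, −5.09 and −3.53.

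Among other genes of the MAF family and basic leucine zipper factors that pair with members of this family, 10 of the 14 listed were tested in T>C reads. At 2, 6 and 24 h 3, 4 and 3 were called lower, beside 7.14%, 17.1% and 31.2% of all genes. The 24 h count thus stood near that share. Medians were −0.41, −0.72 and −0.79 beside 0.05, −0.28 and −0.69 over all genes. In total reads, with 12 tested, 1, 4 and 2 were called lower and 0, 2 and 2 higher. Of all genes 1.25%, 8.67% and 16.1% were called lower and 0.464%, 7.47% and 15% higher. NFE2L3, a cap'n'collar factor that pairs with small MAF proteins, was lower at all 3 times (log2 −2.79, −3.09 and −2.42, adjusted p at most 1e-04), and BACH2, a repressor that also pairs with them, at 6 and 24 h (−3.01 and −2.08, adjusted p = 1e-07 and 8.5e-06). MAFF, a small MAF protein, was lower at 2 and 6 h (−1.70 and −2.83, adjusted p = 3.7e-04 and 6.9e-09) and just inside 2-fold at 24 h (−0.997). NFE2L1 was called at 24 h (−1.22, adjusted p = 5.1e-05), and not when scaled by T>C reads (−0.56, adjusted p = 0.078). JUN, named because of its values, was called higher at 24 h (1.11) after having been lower at 2 h (−1.07).

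Enzymes that act on the MAF protein, kinases, ubiquitin ligases and deubiquitinases, stood near the background. None of the 7 was called at 2 h, 1 was called lower at 6 h and 2 at 24 h, where 7.14%, 17.1% and 31.2% of all genes were, with medians of 0.14, −0.32 and −0.65. In total reads none was called lower and 1 was called higher, at 24 h, where 16.1% of all genes were called lower and 15% higher. USP7, a deubiquitinase, was called at 6 h (log2 −1.43, adjusted p = 4.6e-10) and 24 h (−1.01), and UBE2O, a ubiquitin-conjugating enzyme, at 24 h (−1.03, adjusted p = 0.0015); both 24 h calls were lost when scaled by T>C reads (−0.35 and −0.38). Of 5 other genes linked to MAF in myeloma, DEPTOR, an inhibitor of mTOR complexes, had reads enough for the T>C test and fell at 2, 6 and 24 h (log2 −1.64, −5.82 and −2.80, adjusted p = 1.1e-04, 1e-16 and 1.4e-10). Its total reads gave 0.09 at 2 h (adjusted p = 0.89), −4.22 at 6 h and −3.32 at 24 h. In total reads 3 of these 5 genes were tested, and 0, 1 and 3 were called lower. Of all genes 1.25%, 8.67% and 16.1% were called lower. WWOX, the gene across which many MAF breakpoints lie, had 474 reads over all libraries and could be tested in total reads alone (0.13, 0.57 and −0.21, adjusted p = 0.94, 0.44 and 0.76).

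The partners of ITGB7 differed. ITGA4, whose alpha 4 chain pairs with beta 7, was lower in T>C reads at 2, 6 and 24 h (log2 −1.66, −3.71 and −3.57, adjusted p = 0.048, 5.3e-06 and 2.9e-06), and its total reads gave −0.10, −1.76 and −1.96. Its 2 h value in T>C reads did not pass when scaled by T>C reads (−1.64, adjusted p = 0.059). ITGAE, the other alpha chain that pairs with beta 7, gave −0.26, −1.02 and −0.15 in T>C reads (adjusted p = 0.85, 0.15 and 0.86). In the whole list on integrin adhesion 9 of 15 genes were tested, of which 2, 3 and 2 were called lower and 0, 0 and 2 higher (beside 7.14%, 17.1% and 31.2% of all genes called lower and 1.66%, 2.36% and 2.17% called higher), with medians of −0.26, −0.27 and −0.14. In total reads, with 12 tested, 0, 1 and 1 were called lower and 0, 1 and 6 higher. Of all genes 1.25%, 8.67% and 16.1% were called lower and 0.464%, 7.47% and 15% higher. The list median in total reads reached 1.20 at 24 h. ITGAL, the alpha chain of LFA-1, was lower (−2.12, −1.44 and −2.14, adjusted p = 0.013, 0.048 and 9.7e-04) and FERMT3, an integrin activator, was lower at 6 h (−1.09, adjusted p = 0.036); neither 6 h value passed when scaled by T>C reads (−1.15 and −0.77, adjusted p = 0.15 and 0.16). PXN and VCL, which encode paxillin and vinculin of adhesion sites, were higher at 24 h (1.44 and 1.79, adjusted p = 0.0063 and 0.036).

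Other chemokine receptors fell beside CCR1. Of 12 receptors and CCR1 ligands 4 were tested, all receptors. In T>C reads 3, 3 and 4 were called lower, beside 7.14%, 17.1% and 31.2% of all genes. Their medians were −3.81, −4.47 and −5.36, or −2.37, −4.08 and −4.79 with CCR2, which had 0 T>C reads in all treated libraries, at a floor of 3 reads over a group. CCR2 is among those called lower at 6 and 24 h. It entered the test through its DMSO libraries alone (means of 4, 13.3 and 17 T>C reads), so it could be called in no other direction. CXCR4, the receptor that holds plasma cells in the bone marrow, was lower by log2 values of −5.01, −4.75 and −5.54 (adjusted p at most 1.9e-17). CXCR3, a receptor for interferon-induced chemokines, gave −2.61, −4.20 and −1.54 (adjusted p = 0.0014, 9.3e-07 and 0.018), the last not passing when scaled by T>C reads (−0.90, adjusted p = 0.22). CCR10, a homing receptor of plasma cells, gave −2.13, −1.39 and −5.17 (adjusted p = 0.032, 0.13 and 1.8e-07). The CCR1 ligands on the list had too few T>C reads for the test.

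Among kinases related to NUAK1 and their regulators, 14 of 16 were tested and 2, 4 and 5 were called lower, with medians of 0.13, −0.26 and −0.83. Of all genes 7.14%, 17.1% and 31.2% were called lower, so the 24 h count stood near that share. In total reads, with 15 tested, 1, 3 and 0 were called lower and 0, 2 and 3 higher. Of all genes 1.25%, 8.67% and 16.1% were called lower and 0.464%, 7.47% and 15% higher. NUAK2, the closest relative of NUAK1, fell at 2 and 6 h (log2 −2.71 and −2.89, adjusted p = 7.1e-10 and 3.8e-11), and its 24 h call (−1.07, adjusted p = 0.0019) was lost when scaled by T>C reads (−0.42, adjusted p = 0.28). BRSK1, a kinase of the same family, was lower at all 3 times (−2.26, −1.82 and −2.54), and SIK1, a salt-inducible kinase, at 6 and 24 h (−2.21 and −1.46, adjusted p = 1.3e-04 and 0.0085), the latter not when scaled by T>C reads (−0.81, adjusted p = 0.18). CAB39, a subunit of the LKB1 complex that activates these kinases, was called at 24 h alone (−1.22, adjusted p = 0.028), and not when scaled by T>C reads (−0.57, adjusted p = 0.38).

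CCND2 was not the only D-type cyclin that fell. Of the 10 cyclins, kinases and inhibitors listed with it, 9 were tested, of which 3, 4 and 6 were called lower and 1, 0 and 0 higher in T>C reads, with medians of 0.07, −0.95 and −1.63. Over all genes 7.14%, 17.1% and 31.2% were called lower, with medians of 0.05, −0.28 and −0.69. In total reads 2, 2 and 6 of the 9 were called lower and 0, 0 and 1 higher. The shares of all genes were 1.25%, 8.67% and 16.1% lower and 0.464%, 7.47% and 15% higher. CCND1 was lower at 2 h and 6 h (log2 −2.71 and −6.66, adjusted p = 2.7e-08 and 2e-16), and at 24 h its mean went from 293 to 0.667 T>C reads per library (adjusted p = 4.8e-19). CCND3 was higher at 2 h (1.12, adjusted p = 0.035), gave 0.27 at 6 h (adjusted p = 0.66) and was lower at 24 h (−1.51, adjusted p = 5.8e-04), which did not pass when scaled by T>C reads (−0.86, adjusted p = 0.062). CDK6, a kinase partner of D-type cyclins, was called at 6 and 24 h (−3.37 and −2.12). The inhibitor genes CDKN1A (−1.61, −2.06 and −2.98) and CDKN1B (−1.69, −1.29 and −0.89) were lower too, the last value inside 2-fold and that of CDKN1B at 6 h as well when scaled by T>C reads (−0.98), and E2F1 was lower at 24 h alone (−4.04, adjusted p = 1.4e-14).

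In T>C reads the plasma cell markers were lower along with the 5 genes, all 10 at each time, with medians of −3.12, −4.39 and −3.89. Of all genes 7.14%, 17.1% and 31.2% were called lower at the 3 times. In total reads 2 of 10 were called lower at 2 h, 9 at 6 h and 10 at 24 h, beside 1.25%, 8.67% and 16.1% of all genes. In T>C reads IRF4, a transcription factor that myeloma cells depend on, gave −3.50, −4.32 and −4.53, and TNFRSF17, which encodes BCMA, −3.59, −6.71 and −4.65. POU2AF1, a coactivator of immunoglobulin genes, gave −3.01, −5.64 and −4.24, and CD38 −2.56, −4.76 and −1.88. Of the 15 markers of other cell types 1 was tested in T>C reads (HBB), and it was not called.

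The genes whose T>C reads ran most like those of MAF over the 18 labelled libraries were FOXO3 (Pearson r = 0.992), CPEB4 (0.989), TBL1XR1 (0.988), CHMP4B (0.987) and HES1 (0.986), out of 7431 genes with 20 or more T>C reads on average under DMSO. Among the same genes CCR1 came 29th (0.974), NUAK1 75th (0.962), CCND2 93rd (0.956) and ITGB7 352nd (0.894). These values share libraries and the contrast of dCBP-30 with DMSO that moved many genes, and are given as a description.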

How the data were processed

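The authors trimmed 3′ end reads, aligned them to hg38 with Slamdunk and deposited, for each library, counts of reads and of reads with a T>C conversion on each transcript's 3′ UTR, as whole numbers per the file headers. These counts were joined to GENCODE 44 transcripts (89088 of 97466 rows matched), and each gene was taken as its transcript with the most reads. Samples were grouped by their labels. Genes passing filterByExpr (minimum count 10) were tested in edgeR 4.0.16 (R 4.3.3) by the quasi-likelihood test, with TMM factors and offsets from total reads, for dCBP-30 against DMSO at each time and for the differences between times; all 18 labelled libraries entered 1 fit per measure. The ratio of T>C reads to other reads, as log2 with a pseudocount of 0.5 on both, was tested in limma 3.58.1. Adjusted p-values are Benjamini-Hochberg over all genes tested; a call needs an adjusted p under 0.05 and more than 2-fold for a treatment effect, and the adjusted p alone for a difference between times. The scripts were tested on simulated data. Values are 3 libraries a group from 12440700 to 18729086 reads, which limit precision by counting and by library spread alone. The members and gene lists were chosen with earlier results of these data known, and the comparison of 24 with 6 h was added after the data had been seen. Genes of the lists are named by a rule: always ITGA4, ITGAE, CCND1, CCND3, CXCR4, WWOX and 1 gene that is not reported here, and up to 4 more a list, those called in T>C reads with a mean of 20 or more such reads in the higher group, by size of change. Alternatives were DESeq2 1.42.0, no TMM factors, no filter, reads summed over transcripts, scaling by T>C reads, subtraction of the background without 4sU, another pseudocount, replicate number as a block, and fits without 1 library in turn. The sum over transcripts counts a read on overlapping regions repeatedly. How a spike-in was used in these counts is not given in the sources used here, so none was used.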

Additional observations from a re-analysis of the deposited data

Results flagged for a closer look

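The effect of dCBP-30 on some of the 5 genes differed between times in the test of the difference itself, given here as differences of log2 fold changes with the standard errors and adjusted p-values of the report. Between 2 and 6 h the effect on T>C reads differed for CCND2 (−2.098), ITGB7 (−1.458) and CCR1 (−1.030). Between 2 and 24 h it differed for MAF (0.927), ITGB7 (−1.628) and CCR1 (1.275). Between 6 and 24 h it differed for MAF (1.603), CCND2 (2.542) and CCR1 (2.304). In total reads the effect differed between 6 and 24 h for MAF (1.833), ITGB7 (−2.601), CCR1 (2.611) and NUAK1 (0.535). Negative values mean a deeper decrease at the later time. The values of CCR1 between 2 and 6 h, of MAF and ITGB7 between 2 and 24 h and of NUAK1 in total reads changed their call under alternatives, as described next.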

How the results depend on the processing

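All 5 genes were called lower in T>C reads at each time under every alternative run, leaving out each library included. The treatment effect that lost its call in the edgeR fits was MAF in total reads at 2 h, at −0.974 without TMM factors and −0.983 with reads summed over transcripts (−1.208 to −0.973 over the fits without 1 library); the adjusted p stayed at 0.025 or lower. Among differences between times, that of CCR1 in T>C reads from 2 to 6 h did not pass without TMM factors (−0.816), with summed transcripts (−1.019), with replicate number as a block (−0.992, adjusted p = 0.073), scaled by T>C reads (−0.728) or after background subtraction (−0.393), and ranged from −1.436 to −0.766 without 1 library. That of MAF from 2 to 24 h did not pass with summed transcripts (0.858, adjusted p = 0.09), and that from 2 to 6 h ranged from −0.912 to −0.377 without 1 library. After background subtraction the MAF difference from 2 to 6 h was −0.019 (adjusted p = 0.99). That of CCND2 from 2 to 24 h passed without TMM factors (0.858), scaled by T>C reads (1.080) and after background subtraction (1.774). That of ITGB7 from 2 to 24 h did not pass after subtraction (−1.141). From 6 to 24 h ITGB7, not called, turned to 0.029 without TMM factors, 0.147 scaled by T>C reads and 2.836 after subtraction (−0.496 to 0.069 without 1 library), and NUAK1 to 0.091 scaled by T>C reads. NUAK1 from 2 to 24 h ranged from −0.261 to 0.340 without 1 library. In total reads from 6 to 24 h, NUAK1 ranged from 0.437 to 0.640 and CCND2 from −0.450 to −0.294. For the ratio, CCR1 at 6 h turned to 0.064 with a pseudocount of 2 (−0.132 to 0.097 without 1 library), MAF at 24 h ranged from −1.188 to −0.999 and ITGB7 at 24 h from −0.235 to 0.007, and 1 to 2 of the 5 genes were called at 24 h. The causes were not tested. Samples with the same replicate number did not deviate together (correlations of −0.102 to 0.040 over 4783 genes), so the number was taken as a name. At 6 h depth limits mainly CCR1, with 61 T>C reads in all, and background limits mainly ITGB7, at 89.7% of its T>C reads.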
